A study of Mus musculus with 40 samples.

Results

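The 10 genes described here encode the subunits of the hypoxia-inducible factors (HIF) and the proteins that read oxygen for them. They are the alpha subunits Hif1a, Epas1 and Hif3a, the beta subunits Arnt and Arnt2, the prolyl hydroxylases Egln1, Egln2 and Egln3, the ubiquitin ligase subunit Vhl, and the asparaginyl hydroxylase Hif1an. They were taken by name from the 51789 genes of the count table, after Ensembl identifiers had been matched to mouse symbols, and are described over all 20 groups of cells. Of the 10, 9 had enough counts to be tested. Hif3a did not.

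A HIF dimer joins an oxygen-labile alpha subunit to a stable beta subunit and binds the core ACGTG or its variant GCGTG in the regulatory DNA of genes for glycolysis, angiogenesis and pH control. When oxygen is present, the EGLN enzymes hydroxylate prolines of the alpha subunit, the Vhl ligase then binds it and marks it for degradation, and the Hif1an enzyme hydroxylates an asparagine that blocks its binding to coactivators. Most of this control acts on protein, which RNA counts do not read, but Egln3 and, less strongly, Egln1 are themselves known HIF targets. Bmal1, the clock factor altered in these cells, belongs to the same bHLH-PAS family as the HIF subunits and binds the related sequence CACGTG.

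RNA was taken from cultured mouse melanoma cells in 40 libraries, 2 per group, and read at the 3′ end of transcripts by QuantSeq. The B16-F10 groups were a control clone (Ctrl) and a clone labelled Bmal1 KO, so that each condition is 1 clone. The genotype of YUMM2.1 cells includes BrafV600E, Cdkn2a+/- and 1 stabilized beta-catenin allele, and aC3 is a single Bmal1-null clone made from them. That of YUMM1.7 cells includes BrafV600E and Cdkn2a-/-. In aC3, YUMM2.1 and YUMM1.7, lentivirus delivered an empty vector (EV), wild-type Bmal1 (WT-Bmal1) or a Bmal1 without its DNA-binding basic helix-loop-helix (dHLH-Bmal1). The vectors carry GFP, by which the cells were sorted, and the YUMM2.1 and aC3 cells also hold a Bmal1 promoter-luciferase reporter. A further 9 groups were made from YUMM2.1 cells that held 1 of these vectors and a scrambled hairpin (shNC) or 1 of 2 hairpins against Myh9, the heavy chain of non-muscle myosin IIA (shMyh9#2 and shMyh9#4), held under puromycin. In YUMM2.1 and YUMM1.7 the constructs were added to cells with their own Bmal1. No group was labelled as hypoxic.

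Libraries held 3643332 to 22970049 counts, and at the median total 1 CPM (a count scaled to the size of its library) was about 10 counts. Myh9 was lower with each hairpin than with shNC in all 3 backgrounds (edgeR adjusted p 1.3e-09 to 0.00715). Arntl, the symbol for Bmal1, was at 15.2 and 10.7 CPM in B16-F10 Ctrl and at 13.3 and 11.5 CPM under the label Bmal1 KO, which overlap, although a 3′ tag need not read the edited part of the gene. Of 7 melanocytic markers, all had counts in B16-F10 Ctrl, whereas Dct, Tyrp1 and Mlana were at 0 in YUMM2.1 EV. Pmel and Tyr had at most 3 and 1 counts per library there. Mitf was lower in YUMM2.1 EV, at 14.4 and 14.2 CPM against 863 and 790 CPM in B16-F10 Ctrl. Sox10 went the other way, at 501 and 484 CPM in YUMM2.1 EV against 367 and 385 CPM. Of the markers of other cells, Epcam was at 0 in every library, the leukocyte gene Ptprc did not pass 0.288 CPM and Krt5 did not pass 0.0476 CPM. Pecam1 and Cd68 had counts in every library, at 3.70 to 13.2 CPM and 0.356 to 3.82 CPM. In bulk RNA, fewer cells of a type and less RNA per cell cannot be told apart.

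The YUMM2.1 EV and WT-Bmal1 libraries raise a doubt that touches several members. Across 10533 genes, the SD of the log2 ratio was 0.49 between the YUMM2.1 EV libraries and 0.345 between those of WT-Bmal1. It was 0.282 between EV replicate 1 and WT-Bmal1 replicate 1 and 0.304 between EV replicate 2 and WT-Bmal1 replicate 2. In another table of normalized counts from the same study, the second EV replicate and the first WT-Bmal1 replicate carry each other's names. Which naming is right could not be settled here. The deposited labels were used. Where the exchange of these labels changes a member's call, the value with the labels exchanged is given too, for some results beside the value without both libraries, an alternative chosen after the data were seen.

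The promoters of Egln3 and Arnt2, the members called most often, are printed with those of Egln1 and Hif1a, which were called less often. Each window is 300 bases, 250 before the annotated start and 50 after it, from RefSeq on GRCm38.p6, written 5′ to 3′ on the strand of the gene, and capitals mark the HIF core ACGTG, the variant core GCGTG, and the clock element CACGTG on either strand. CACGTG holds ACGTG on both strands and so counts for that core as well. Egln3 is at chr12:54203825-54204124 on the minus strand, Egln1 at chr8:124949205-124949504 on the minus strand, Hif1a at chr12:73907617-73907916 on the plus strand, and Arnt2 at chr7:84409989-84410288 on the minus strand.
Egln3: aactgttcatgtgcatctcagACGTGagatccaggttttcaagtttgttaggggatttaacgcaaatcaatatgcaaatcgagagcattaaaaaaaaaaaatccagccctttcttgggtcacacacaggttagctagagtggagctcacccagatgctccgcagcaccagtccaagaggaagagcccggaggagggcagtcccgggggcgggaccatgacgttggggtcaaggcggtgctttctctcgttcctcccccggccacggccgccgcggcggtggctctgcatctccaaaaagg
Egln1: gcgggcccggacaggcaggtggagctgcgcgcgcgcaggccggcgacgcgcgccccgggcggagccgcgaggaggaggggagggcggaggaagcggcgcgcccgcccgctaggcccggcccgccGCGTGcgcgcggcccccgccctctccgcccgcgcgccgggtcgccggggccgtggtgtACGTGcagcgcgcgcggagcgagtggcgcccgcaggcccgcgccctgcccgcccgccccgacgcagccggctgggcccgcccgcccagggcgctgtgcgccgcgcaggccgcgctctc
Hif1a: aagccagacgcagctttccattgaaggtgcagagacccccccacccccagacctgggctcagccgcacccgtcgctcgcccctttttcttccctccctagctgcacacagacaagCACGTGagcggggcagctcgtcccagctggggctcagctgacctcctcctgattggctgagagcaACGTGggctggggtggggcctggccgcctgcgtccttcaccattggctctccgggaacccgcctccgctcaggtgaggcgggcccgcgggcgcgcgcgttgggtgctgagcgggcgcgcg
Arnt2: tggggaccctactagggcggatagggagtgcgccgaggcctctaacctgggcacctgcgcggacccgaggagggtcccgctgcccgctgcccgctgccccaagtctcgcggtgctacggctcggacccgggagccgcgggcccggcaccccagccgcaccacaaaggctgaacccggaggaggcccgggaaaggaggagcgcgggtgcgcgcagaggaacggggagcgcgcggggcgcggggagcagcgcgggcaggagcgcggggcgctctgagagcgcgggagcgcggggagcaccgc
Egln3 held ACGTG 1 time, near the far end of the window from the start. Egln1 held ACGTG 1 time and GCGTG 1 time. Hif1a held ACGTG 3 times when both strands were read, and 2 of these were the strands of 1 CACGTG. Arnt2 held none of them. Of the 10 members, 9 matched a RefSeq window, Egln2 had 2, and 7 of the 10 windows held ACGTG or GCGTG. Among 32851 promoter windows of the same length, 43.8% held ACGTG or GCGTG and 7.2% held CACGTG. A match describes these letters alone.

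Across the 20 groups, Egln3 and Arnt2 spanned a wide range, Epas1 did so on few counts, and the others spanned a narrow one. Egln3 differed 73.0-fold between its lowest and highest group means and Arnt2 60.5-fold. Egln1 differed 3.08-fold, Arnt 2.27-fold, Hif1a 2.09-fold and Egln2 1.7-fold. Within a group, the median coefficient of variation was 4.87% for Hif1a, 6.43% for Egln1, 11.6% for Arnt2, 13% for Egln3, 15.4% for Arnt and 39.8% for Epas1. Among the 19 pairs of groups that stood next to each other in the order of levels, the libraries did not overlap in 7 pairs for Egln3, 6 for Arnt2, 3 for Hif1a, 2 for Epas1 and 0 for Arnt, so most neighbours in these orders did not differ beyond the spread of their libraries.

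**Figure D1:**
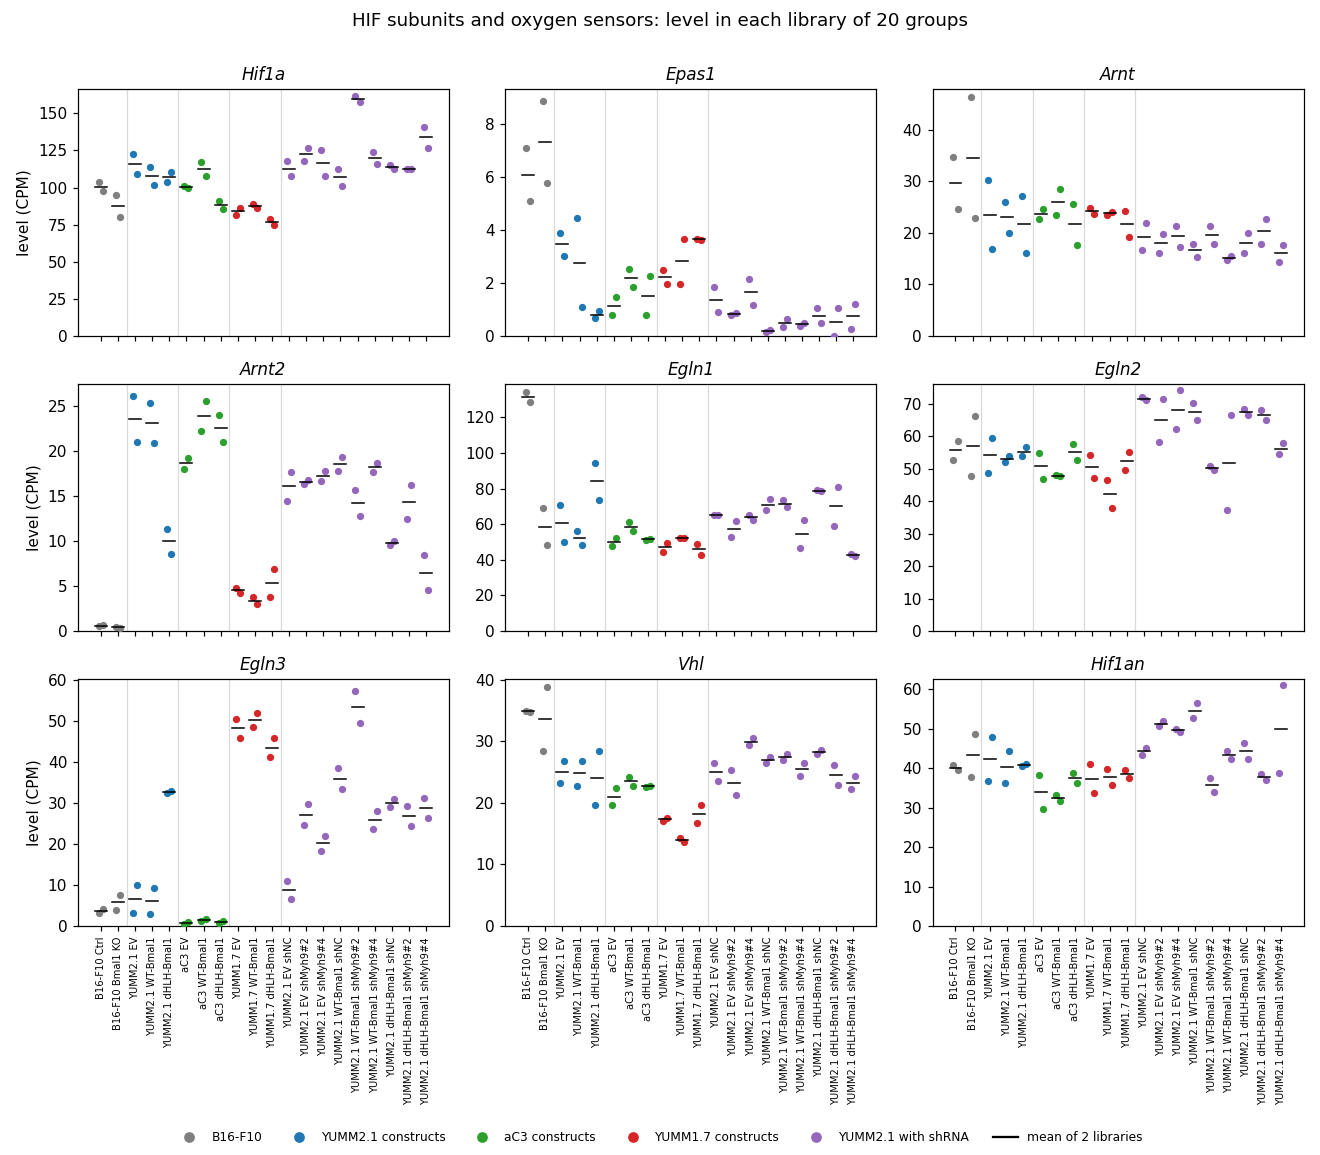
Level of 9 members in CPM (vertical axis of each panel) in the 20 groups (horizontal axis, coloured by cell line or experiment); points are libraries and short lines are group means, n = 2. Egln3 runs from 0.536 to 57.3 CPM and Arnt2 from 0.383 to 26.1 CPM, whereas Hif1a stays between 74.5 and 162 CPM.

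Each comparison was tested with edgeR's quasi-likelihood test over all genes that passed its filter, and a gene was called where its p, after Benjamini-Hochberg adjustment, was under 0.05. This value is the edgeR adjusted p below. The study calls its replicates biological. The labels do not say whether they came from separate cultures, and where they did not, the p-values measure only the spread between these libraries, which may be technical. With 2 libraries against 2, an exact two-sided permutation test cannot go below 0.333, and none was run. Comparisons within 1 experiment share libraries, so counts over them are not independent.

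In B16-F10, 0 of 9 members were called between Bmal1 KO and Ctrl, where 0.440% of all tested genes were called. 1 member had an unadjusted p under 0.05, and DESeq2 called 1. In aC3, edgeR called 0 of 9 members for WT-Bmal1 against EV (background 11.2%), for dHLH-Bmal1 against EV (10.9%) and for WT-Bmal1 against dHLH-Bmal1 (0.877%). Unadjusted p-values under 0.05 numbered 2, 1 and 1 there, and DESeq2 called 0 in each. In YUMM2.1, 0 of 9 were called for WT-Bmal1 against EV, with 0 at an unadjusted p under 0.05 and 0 by DESeq2, where edgeR called 0% of genes, 98 genes had an unadjusted p under 0.05, and DESeq2 called 0. With dHLH-Bmal1, 2 of 9 members were called against EV (22.2%, background 13.2%) and 2 of 9 against WT-Bmal1 (background 13.0%). In YUMM1.7, edgeR called 0 of 9 for WT-Bmal1 against EV (background 0.138%), 0 for dHLH-Bmal1 against EV (0.630%) and 0 for dHLH-Bmal1 against WT-Bmal1 (2.57%), with 1, 0 and 5 unadjusted p-values under 0.05 and 0 DESeq2 calls in each.

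Myh9 hairpins changed 1 member of 9 in EV cells with shMyh9#2 (background 6.65%) and 1 with shMyh9#4 (1.71%). In WT-Bmal1 cells, 2 of 9 were called with shMyh9#2 (background 4.76%) and 0 with shMyh9#4 (0.236%; 3 unadjusted p-values under 0.05, 0 DESeq2 calls). In dHLH-Bmal1 cells, 0 were called with shMyh9#2 (0.559%; 1 unadjusted, 0 by DESeq2) and 1 with shMyh9#4 (15.1%). Among the shNC cells, 1 of 9 was called for WT-Bmal1 against EV (22.3%), 2 for dHLH-Bmal1 against EV (26.4%) and 1 for dHLH-Bmal1 against WT-Bmal1 (1.91%). Between lines with EV or Ctrl, 3 of 9 members were called for B16-F10 against YUMM2.1 (54.3%), 4 for YUMM1.7 against YUMM2.1 (37.1%) and 1 for aC3 against YUMM2.1 (1.75%). With the YUMM2.1 labels exchanged, the share of all genes called rose to 9.76% in the last of these and to 28.7% for dHLH-Bmal1 against EV in YUMM2.1. Line, clone and vector cannot be told apart in the B16-F10 comparison. Tests of differences between effects called 0 members for WT-Bmal1 in aC3 against YUMM2.1 (0.0750%) and 0 in YUMM1.7 against YUMM2.1 (0%, with 398 genes at an unadjusted p under 0.05 and 0 by DESeq2), and for both of these 0 members had an unadjusted p under 0.05 and DESeq2 called 0. For dHLH-Bmal1 they called 1 member in aC3 against YUMM2.1 (12.2%) and 2 in YUMM1.7 against YUMM2.1 (9.89%). Against the effect in EV cells, that of shMyh9#2 differed for 2 members in WT-Bmal1 cells (5.18%) and 1 in dHLH-Bmal1 cells (3.29%), and that of shMyh9#4 for 1 in WT-Bmal1 cells (0.741%) and 2 in dHLH-Bmal1 cells (8.51%).

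**Figure D2:**
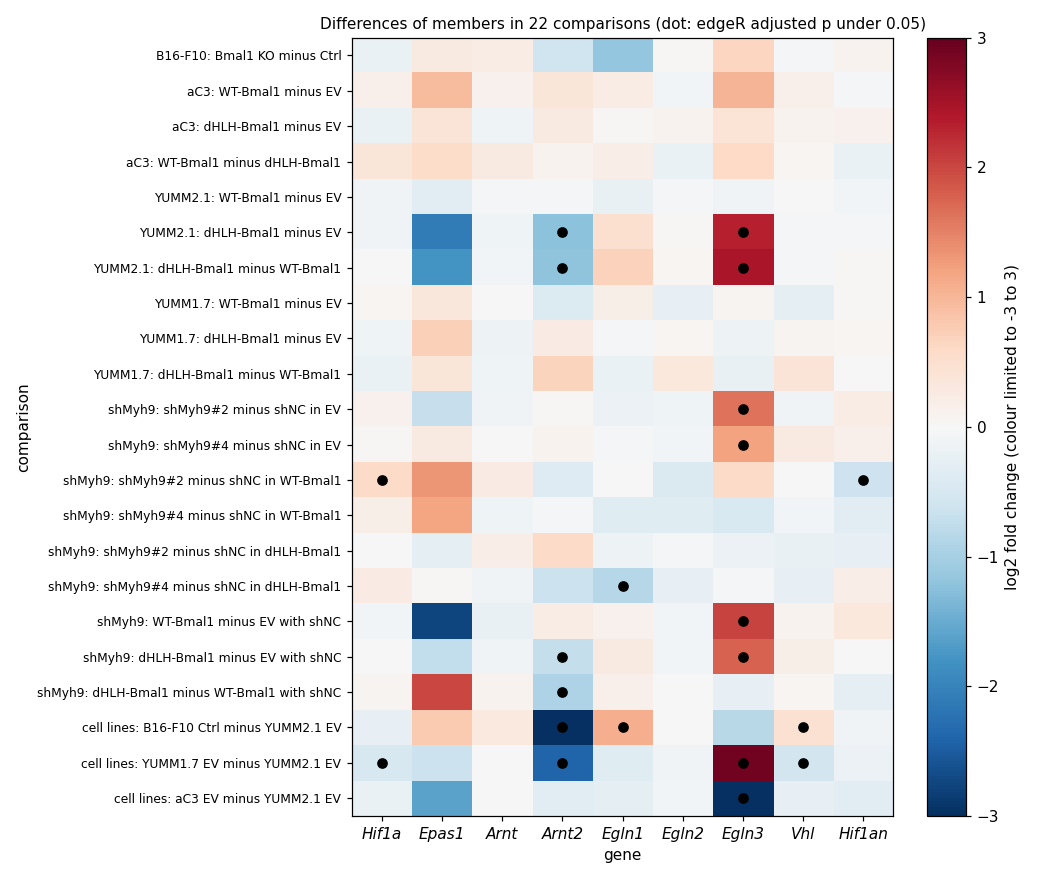
Log2 fold change of 9 members (columns) in 22 comparisons (rows), coloured from -3 to 3, with a dot where the edgeR adjusted p was under 0.05 (n = 2 libraries per group). Dots gather in the columns of Egln3 and Arnt2, and Epas1, Arnt and Egln2 have none.

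Hif1a, the alpha subunit of HIF-1 (ENSMUSG00000021109, chr12:73901375-73947530, plus strand, overlapping 2 annotated genes with counting strand not stated), was abundant in every line, within a 2.09-fold range of group means. It was at 104 and 97.5 CPM in B16-F10 Ctrl and 95.1 and 79.9 CPM in Bmal1 KO. In aC3 it was at 101 and 99.9 CPM with EV, 117 and 108 CPM with WT-Bmal1 and 91.3 and 85.4 CPM with dHLH-Bmal1. The aC3 groups did not overlap, yet the edgeR adjusted p for WT-Bmal1 against dHLH-Bmal1 was 0.0698 (log2 fold change 0.36, SE 0.0859). Against EV the log2 fold changes in aC3 were 0.16 for WT-Bmal1 (95% interval -0.003 to 0.33) and -0.20 for dHLH-Bmal1 (-0.37 to -0.03), with edgeR adjusted p-values of 0.25 and 0.16. In YUMM2.1, dHLH-Bmal1 against WT-Bmal1 gave a log2 difference of -0.01 (95% interval -0.26 to 0.25), or 0.03 with the labels exchanged, and levels were 104 and 110.2 CPM against 114 and 102 CPM.

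The single call for Hif1a within a line was with shMyh9#2 in WT-Bmal1 cells. It was at 113 and 101 CPM with shNC, 162 and 157 CPM with shMyh9#2 and 124 and 116 CPM with shMyh9#4. Both shMyh9#2 libraries were above every other library of the series. The log2 fold change was 0.57 (SE 0.107, 1.49-fold, edgeR adjusted p = 0.00383), and without WT-Bmal1 shNC replicate 2 it was 0.50 (adjusted p = 0.0652). For shMyh9#4 in the same cells it was 0.17 (95% interval -0.05 to 0.38, adjusted p = 0.587), and shMyh9#4 left more Myh9 (538 and 477 CPM) than shMyh9#2 (234 and 241 CPM). In dHLH-Bmal1 cells, shMyh9#4 gave 141 and 127 CPM against 115 and 112 CPM with shNC, a log2 fold change of 0.25 with an edgeR adjusted p of 0.127.

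Between lines, Hif1a was lower in YUMM1.7 EV (81.8 and 86.5 CPM) than in YUMM2.1 EV (122 and 109 CPM). The groups did not overlap, and the log2 fold change was -0.47 (SE 0.0959, edgeR adjusted p = 0.00349), or -0.50 with the doubtful YUMM2.1 labels exchanged. Without YUMM1.7 EV replicate 1 it was -0.43 with an adjusted p of 0.0508. B16-F10 Ctrl was 0.23 log2 units below YUMM2.1 EV (adjusted p = 0.0589), and with the labels exchanged 0.26 below it, which passed the threshold (adjusted p = 0.00648).

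Epas1, the alpha subunit of HIF-2 (ENSMUSG00000024140, chr17:86753700-86833410, plus strand, overlapping 1 gene), was measured with few counts and no call was made for it in 22 comparisons. It was at 7.10 and 5.09 CPM in B16-F10 Ctrl and 8.89 and 5.80 CPM in Bmal1 KO, the highest libraries of the series. In YUMM2.1 it was at 3.90 and 3.02 CPM with EV, 4.44 and 1.10 CPM with WT-Bmal1, and 0.662 and 0.951 CPM with dHLH-Bmal1. Both dHLH-Bmal1 libraries lay below all others of YUMM2.1 without a hairpin, but the log2 fold change against EV of -2.10 (SE 0.716) had an edgeR adjusted p of 0.104. With the labels exchanged it was -2.37 (adjusted p = 0.0131), and it was also called without a filter on low counts (-2.13, adjusted p = 0.00196), with a replicate block (-2.10, adjusted p = 0.0351) and in 1 fit of all 40 libraries (-2.11, adjusted p = 0.0246). In WT-Bmal1 shNC cells Epas1 stood on 1 and 2 counts (0.136 and 0.238 CPM), against 1.85 and 0.897 CPM in EV shNC cells (adjusted p = 0.0837), and 1 fit of all 40 libraries called this difference (log2 -2.77, adjusted p = 0.0409). The YUMM1.7 cells did not have the low values of YUMM2.1 dHLH-Bmal1, and held 3.68 and 3.63 CPM with dHLH-Bmal1 and 2.49 and 1.97 CPM with EV. The difference between these dHLH-Bmal1 effects was 2.83 log2 units (adjusted p = 0.0589), 3.09 with the labels exchanged (adjusted p = 0.00641) and 3.0 without both doubtful libraries (adjusted p = 0.0163). The exchange also brought 3 further differences of Epas1 past the threshold. These were the dHLH-Bmal1 effect in aC3 minus that in YUMM2.1 (2.73, adjusted p = 0.038, against 2.46 and 0.145 as deposited), YUMM1.7 EV against YUMM2.1 EV (-0.91, adjusted p = 0.0414, against -0.65 and 0.21) and aC3 EV against YUMM2.1 EV (-1.87, adjusted p = 0.00678, against -1.61 and 0.0953).

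Hif3a, an alpha subunit whose isoforms include inhibitors of the other HIF factors (ENSMUSG00000004328, chr7:17031507-17062427, minus strand, overlapping 1 gene), had 2 counts in all and was at 0 in 38 of 40 libraries. A count of 0 allows up to 3 counts, which is 0.122 to 0.845 CPM depending on the depth of the library, counting error only. No fold change is given for it.

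Arnt, the beta subunit shared by HIF-1 and HIF-2 and also called HIF-1beta (ENSMUSG00000015522, chr3:95434388-95497240, plus strand, overlapping 1 gene), did not pass the test in any comparison. Its levels lay between 14.4 and 46.3 CPM, and no neighbouring groups in its order were apart. Its log2 fold changes ran from -0.21 to 0.29, with a smallest edgeR adjusted p of 0.345. Replicates differed most in B16-F10 Bmal1 KO, at 46.3 and 22.8 CPM. There the log2 fold change of 0.22 was -0.38 without Bmal1 KO replicate 1 and 0.64 without replicate 2, so that 1 library decides its direction.

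Arnt2, the other beta subunit, best known from neurons (ENSMUSG00000015709, chr7:84246278-84410176, minus strand, overlapping 2 genes), separated the lines. B16-F10 Ctrl had 0.524 and 0.678 CPM, on 11 and 14 counts, and Bmal1 KO 0.408 and 0.383 CPM. YUMM2.1 EV had 26.1 and 21 CPM and aC3 EV 18 and 19.3 CPM. YUMM1.7 EV had 4.81 and 4.21 CPM, between B16-F10 and YUMM2.1 and without overlap with either. Against YUMM2.1 EV, B16-F10 Ctrl was 39.5-fold lower (log2 -5.31, SE 0.246, edgeR adjusted p = 6.75e-08) and YUMM1.7 EV 5.26-fold lower (log2 -2.40, SE 0.203, adjusted p = 1.24e-05). Both calls were kept in 8 of 8 fits that left out a library, and with the YUMM2.1 labels exchanged the log2 values were -5.43 and -2.52.

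Within YUMM2.1, Arnt2 was lower with dHLH-Bmal1. It was at 11.4 and 8.56 CPM with dHLH-Bmal1, 26.1 and 21 CPM with EV and 25.4 and 20.9 CPM with WT-Bmal1. The dHLH-Bmal1 libraries lay below all 4 others, and the log2 fold change was -1.24 against EV (SE 0.229, 2.36-fold, edgeR adjusted p = 0.0165) and -1.21 against WT-Bmal1 (SE 0.229, adjusted p = 0.0181). With the labels exchanged the values were -1.36 (adjusted p = 0.000773) and -1.06 (adjusted p = 0.00463). Without both doubtful libraries they were -1.40 (adjusted p = 0.0094) and -1.06, the latter no longer past the threshold (adjusted p = 0.0826). Leaving out EV replicate 1 (adjusted p = 0.0788) or dHLH-Bmal1 replicate 2 (0.0735) ended the first call, and leaving out WT-Bmal1 replicate 1 (0.154) or dHLH-Bmal1 replicate 2 (0.081) ended the second.

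The cells with a scrambled hairpin gave a smaller Arnt2 difference of the same sign. EV shNC libraries had 14.4 and 17.7 CPM, WT-Bmal1 shNC 17.8 and 19.4 CPM, and dHLH-Bmal1 shNC 9.58 and 10.1 CPM. The dHLH-Bmal1 libraries again lay below the other 4, with a log2 fold change of -0.71 against EV (SE 0.224, edgeR adjusted p = 0.0264) and -0.92 against WT-Bmal1 (SE 0.224, adjusted p = 0.0415). The first was lost without EV shNC replicate 2 (log2 -0.56, adjusted p = 0.199) or dHLH-Bmal1 shNC replicate 1 (0.158) or 2 (0.0871). The second was lost in 12 of 18 fits that left out 1 library, with adjusted p-values of 0.0513 to 0.357. In dHLH-Bmal1 cells with shMyh9#4, Arnt2 was at 8.45 and 4.52 CPM, which did not pass the test against shNC (adjusted p = 0.115).

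In aC3 and YUMM1.7, Arnt2 passed no construct comparison. In aC3 it was at 24.0 and 21.1 CPM with dHLH-Bmal1, 22.3 and 25.6 CPM with WT-Bmal1 and 18 and 19.3 CPM with EV. In YUMM1.7 it was at 3.78 and 6.90 CPM with dHLH-Bmal1, 3.74 and 2.98 CPM with WT-Bmal1 and 4.81 and 4.21 CPM with EV. The dHLH-Bmal1 effect in aC3 exceeded that in YUMM2.1 by 1.46 log2 units (SE 0.268, edgeR adjusted p = 0.00432), a call kept in 12 of 12 fits that left out a library and, at 1.59, with the labels exchanged (adjusted p = 0.00018). The effect in YUMM1.7 exceeded that in YUMM2.1 by 1.5 log2 units (SE 0.396, adjusted p = 0.0367), and this was lost in 7 of 12 such fits (adjusted p 0.055 to 0.193). The exchange of labels gave a difference of 1.63, which was called (adjusted p = 0.00559).

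**Figure D3:**
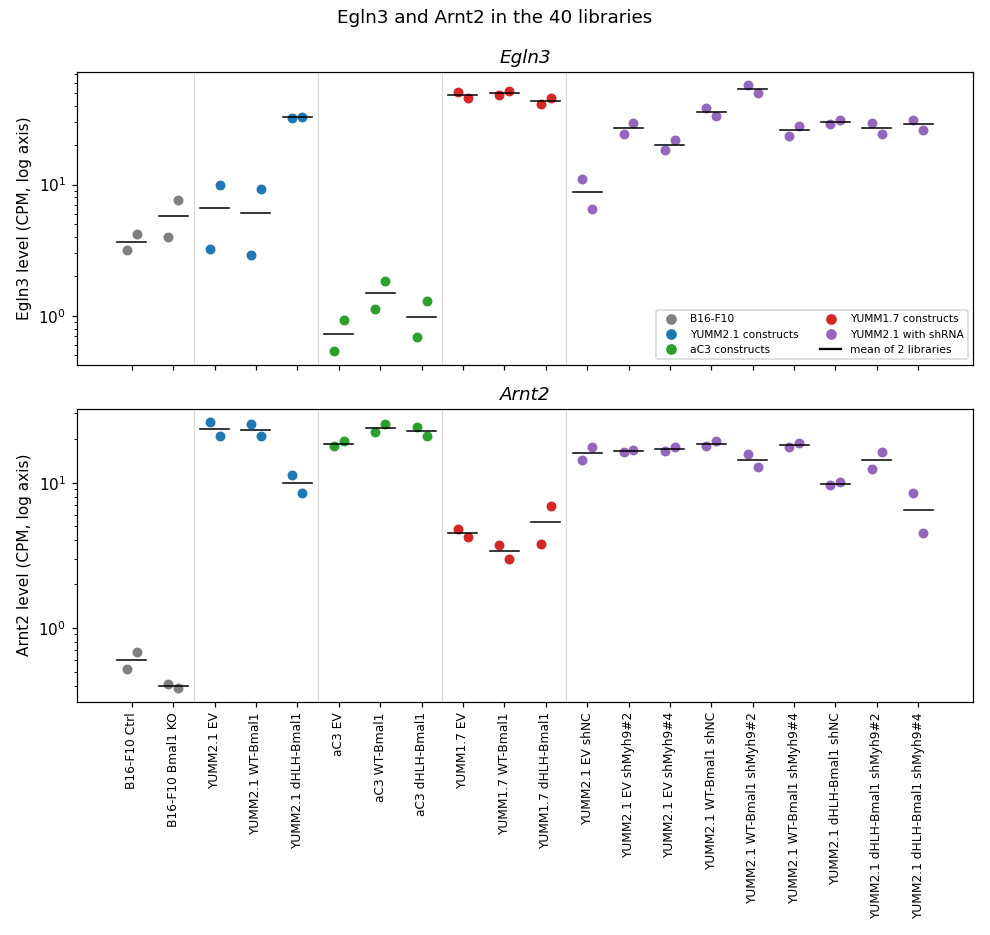
Level of Egln3 and Arnt2 in CPM (vertical log axes) in the 20 groups, with a point per library and a line at the group mean (n = 2). Arnt2 is below 1 CPM in the B16-F10 libraries and Egln3 is at or below 1.85 CPM in aC3 and at or above 41.1 CPM in YUMM1.7.

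Egln1 encodes PHD2, the main HIF prolyl hydroxylase of most cells (ENSMUSG00000031987, chr8:124908587-124949324, minus strand, no overlapping gene). It was at 134 and 129 CPM in B16-F10 Ctrl and 69.0 and 48.3 CPM in Bmal1 KO, on 2813 and 2652 against 1694 and 1008 counts. The Ctrl libraries were the highest of the series and did not overlap those of Bmal1 KO. The log2 fold change was -1.17 (SE 0.218, 95% interval -1.60 to -0.74), and the edgeR adjusted p of 0.14 did not pass the threshold. DESeq2's Wald test gave -1.15 with an adjusted p of 0.00201, and 1 fit of all 40 libraries an edgeR adjusted p of 1.77e-05. The value was -1.45 without Bmal1 KO replicate 1 and -0.93 without replicate 2. Each of these fits kept 1 Bmal1 KO library, so the spread of that group was not measured in them. B16-F10 Ctrl was also above YUMM2.1 EV, at 70.9 and 49.9 CPM, by 1.09 log2 units (SE 0.149, 2.12-fold, adjusted p = 0.000176), kept in 8 of 8 fits that left out a library and at 1.02 with the YUMM2.1 labels exchanged.

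In YUMM2.1, Egln1 was at 94.3 and 73.8 CPM with dHLH-Bmal1 and 56.0 and 48.5 CPM with WT-Bmal1. The groups did not overlap, and the log2 fold change of 0.69 (SE 0.21) had an edgeR adjusted p of 0.0758. It was called with DESeq2's Wald test (0.70, adjusted p = 0.0357), with a replicate block (0.69, 0.0018), in 1 fit of all 40 libraries (0.69, 0.00342) and with the labels exchanged (0.78, 0.00989), and not without both doubtful libraries (0.80, 0.106). Against EV, at 70.9 and 49.9 CPM and likewise without overlap, the log2 fold change was 0.48 (adjusted p = 0.185), which the replicate block (0.49, adjusted p = 0.0109) and 1 fit of all 40 libraries (0.48, adjusted p = 0.0427) called. It was not called with the labels exchanged (0.41, adjusted p = 0.0833) or without both doubtful libraries (0.23, adjusted p = 0.658). For YUMM1.7 EV against YUMM2.1 EV the log2 fold change of Egln1 was -0.37 (adjusted p = 0.0832), and the exchange made it -0.45 (adjusted p = 0.00414). Egln1 fell with shMyh9#4 in dHLH-Bmal1 cells, from 79.0 and 78.5 CPM with shNC to 43.4 and 41.9 CPM, whereas shMyh9#2 gave 59.2 and 81.1 CPM. The shMyh9#4 libraries were the lowest of the hairpin groups, with a log2 fold change of -0.87 (SE 0.154, 1.82-fold, edgeR adjusted p = 0.00186) and, without shMyh9#4 replicate 2, of -0.85 (adjusted p = 0.0522). In EV cells the same hairpin left Egln1 at 65.1 and 62.6 CPM beside 65.0 and 65.4 CPM with shNC, and the difference between these effects was -0.83 log2 units (SE 0.211, adjusted p = 0.0216), lost in 6 of 18 fits that left out a library. Myh9 itself was at 678 and 635 CPM in the dHLH-Bmal1 shMyh9#4 cells and at 291 and 263 CPM with shMyh9#2. A relation between Egln1 and Myh9 was not tested.

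Egln2 encodes PHD1, the prolyl hydroxylase that is not induced by HIF (ENSMUSG00000058709, chr7:27158658-27166802, minus strand, overlapping Cyp2t4 on the other strand). Its levels lay between 37.2 and 74.2 CPM, and no comparison was called. The highest group was EV shNC at 72.0 and 71.2 CPM and the lowest YUMM1.7 WT-Bmal1 at 46.4 and 37.8 CPM. Log2 fold changes ran from -0.43 to 0.31, with a smallest edgeR adjusted p of 0.164.

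Egln3 encodes PHD3, the prolyl hydroxylase most strongly induced by HIF (ENSMUSG00000035105, chr12:54178981-54203860, minus strand, no overlapping gene), and it was the member called most often, higher in 7 and lower in 1 of 22 comparisons. In EV cells it was at 0.536 and 0.927 CPM in aC3, 3.24 and 9.92 CPM in YUMM2.1 and 50.4 and 45.9 CPM in YUMM1.7, with 3.19 and 4.17 CPM in B16-F10 Ctrl. The 3 YUMM-derived lines did not overlap. YUMM1.7 EV was 7.47-fold above YUMM2.1 EV (log2 2.90, SE 0.381, edgeR adjusted p = 0.000244), kept in 8 of 8 fits that left out a library and at 3.95 with the labels exchanged. The aC3 clone was 8.70-fold below YUMM2.1 EV (log2 -3.12, SE 0.578, adjusted p = 0.0293). That call was lost in 6 of 8 fits that left out a library (adjusted p 0.0584 to 0.321), and with the labels exchanged it was -2.07 (adjusted p = 0.00189).

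In YUMM2.1, Egln3 was higher with dHLH-Bmal1. It was at 32.5 and 32.8 CPM with dHLH-Bmal1, against 3.24 and 9.92 CPM with EV and 2.90 and 9.27 CPM with WT-Bmal1. The dHLH-Bmal1 libraries lay above all others, while EV and WT-Bmal1 each held 1 low and 1 high library. The log2 fold change was 2.34 against EV (SE 0.608, 95% interval 1.15 to 3.53, 5.06-fold, edgeR adjusted p = 0.0478) and 2.44 against WT-Bmal1 (SE 0.61, 5.44-fold, adjusted p = 0.0428). The first call was lost without EV replicate 1 (log2 1.72, adjusted p = 0.144) or dHLH-Bmal1 replicate 1 (0.108) or 2 (0.128), and the second without WT-Bmal1 replicate 1 (log2 1.82, 0.209) or dHLH-Bmal1 replicate 1 (0.101) or 2 (0.116). With the labels exchanged, so that the low libraries share a group, the values were 3.41 (adjusted p = 8.63e-06) and 1.77 (adjusted p = 0.000241), and without both doubtful libraries 3.32 (1.36e-05) and 1.82 (0.00333).

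The comparison of WT-Bmal1 with EV in YUMM2.1 turned on those labels. As deposited, the log2 fold change of Egln3 was -0.10 (SE 0.625, 95% interval -1.33 to 1.12, edgeR adjusted p = 1). With the labels exchanged it was 1.63 (SE 0.197, adjusted p = 0.0109), and without both doubtful libraries, which leaves 1 library per group, 1.5 (adjusted p = 0.301). The shNC cells are separate groups, whose EV and WT-Bmal1 labels were not checked in this way. There Egln3 was at 11.1 and 6.5 CPM with EV, 38.5 and 33.3 CPM with WT-Bmal1 and 29.0 and 31.0 CPM with dHLH-Bmal1. The EV libraries lay below the other 4, with a log2 fold change of 2.04 for WT-Bmal1 (SE 0.218, 4.1-fold, adjusted p = 2.84e-06) and 1.78 for dHLH-Bmal1 (SE 0.218, 3.43-fold, adjusted p = 8e-06), both kept in 18 of 18 fits that left out a library. Between dHLH-Bmal1 and WT-Bmal1 with shNC the difference was -0.26 (95% interval -0.64 to 0.13, adjusted p = 0.64).

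In aC3 and YUMM1.7, Egln3 passed no construct comparison. In aC3 it was at 1.13 and 1.85 CPM with WT-Bmal1 and 0.686 and 1.29 CPM with dHLH-Bmal1. In YUMM1.7 it was at 48.5 and 51.8 CPM with WT-Bmal1 and 41.1 and 45.8 CPM with dHLH-Bmal1. The log2 fold change of dHLH-Bmal1 against EV was 0.41 in aC3 (95% interval -0.93 to 1.74) and -0.14 in YUMM1.7 (-0.33 to 0.04). The dHLH-Bmal1 effect in YUMM1.7 was 2.50 log2 units below that in YUMM2.1 (difference -2.50, SE 0.586, edgeR adjusted p = 0.0228, lost in 4 of 12 fits that left out a library), or -3.54 with the labels exchanged (adjusted p = 4.81e-08). The WT-Bmal1 effect in YUMM1.7 minus that in YUMM2.1 was 0.17 (adjusted p = 1) as deposited and -1.56 (adjusted p = 0.00118) after the exchange. In aC3 the dHLH-Bmal1 effect was below that in YUMM2.1 by a difference that did not pass the test as deposited (-1.97, adjusted p = 0.267) and did with the labels exchanged (-3.03, adjusted p = 0.00115) or without both doubtful libraries (-2.93, adjusted p = 0.00865).

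Myh9 hairpins raised Egln3 in EV cells. From 11.1 and 6.5 CPM with shNC it was at 24.5 and 29.7 CPM with shMyh9#2 and 18.3 and 22 CPM with shMyh9#4. Neither hairpin group overlapped shNC, and the log2 fold change was 1.63 for shMyh9#2 (SE 0.22, 3.10-fold, edgeR adjusted p = 0.000137, kept in 18 of 18 fits that left out a library) and 1.20 for shMyh9#4 (SE 0.221, 2.30-fold, adjusted p = 0.00548). The shMyh9#4 call was lost without EV shNC replicate 2 (log2 0.87, adjusted p = 0.15) or shMyh9#4 replicate 2 (1.06, 0.0866), and in 1 fit of all 40 libraries (adjusted p = 0.164).

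In WT-Bmal1 and dHLH-Bmal1 cells, whose shNC levels were already higher, no hairpin effect on Egln3 was called. WT-Bmal1 cells went from 38.5 and 33.3 CPM to 57.3 and 49.5 CPM with shMyh9#2 (log2 0.57, 95% interval 0.20 to 0.94, edgeR adjusted p = 0.104) and to 23.6 and 28.1 CPM with shMyh9#4 (-0.46, adjusted p = 0.356). dHLH-Bmal1 cells were at 29.4 and 24.4 CPM with shMyh9#2 and 31.3 and 26.2 CPM with shMyh9#4 (log2 -0.18 and -0.05). Against EV cells the effect of shMyh9#2 was smaller in WT-Bmal1 cells (difference -1.06, adjusted p = 0.0418) and in dHLH-Bmal1 cells (-1.81, adjusted p = 0.00187). That of shMyh9#4 differed from EV cells by -1.66 in WT-Bmal1 cells (adjusted p = 0.0121) and -1.25 in dHLH-Bmal1 cells (adjusted p = 0.0181). The first was lost in 10 of 18 fits that left out a library, and was -0.69 without EV shNC replicate 2 (adjusted p = 0.237), while the second was kept in 18 of 18. The shMyh9#4 differences were lost in 3 and 5 of 18 such fits, and without EV shNC replicate 2 were -1.33 (adjusted p = 0.0838) and -0.91 (adjusted p = 0.106). In 1 fit of all 40 libraries these 4 differences had adjusted p-values of 0.0586 to 0.245.

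**Figure D4:**
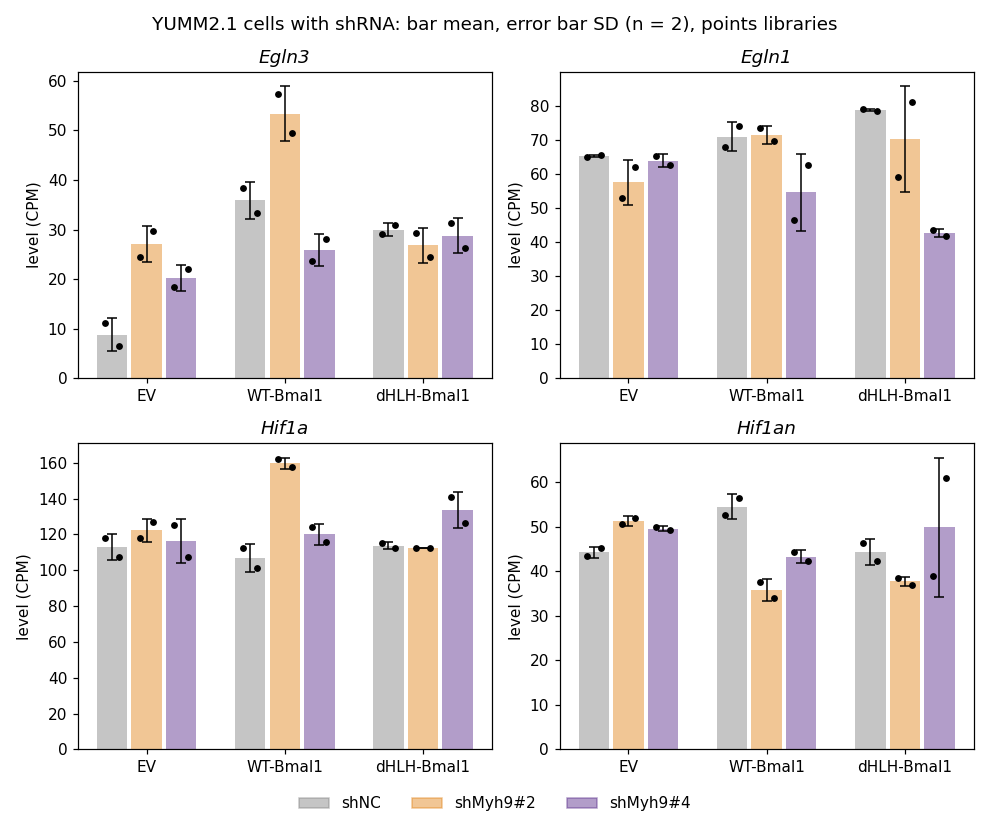
Mean level in CPM (vertical axis, bars from 0; error bars SD, points are libraries, n = 2) of Egln3, Egln1, Hif1a and Hif1an in the 9 hairpin groups, 3 hairpins for each construct. Egln3 is lowest in EV shNC cells and Egln1 in dHLH-Bmal1 shMyh9#4 cells.

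The summed melanoma cell state markers differed between some of the groups that differed in Egln3 and not between others. Single markers did not always follow their sum. The summed level of the mesenchymal markers Sox9, Axl and Fn1, 3 of 3 with counts, was 939 and 909 CPM in EV shNC, 1481 and 1512 CPM in EV shMyh9#2, 1192 and 1328 CPM in EV shMyh9#4, 1882 and 2094 CPM in WT-Bmal1 shNC and 1877 and 1939 CPM in dHLH-Bmal1 shNC, so that EV shNC was lowest in this sum as in Egln3. WT-Bmal1 shMyh9#2, with the highest Egln3 of all groups, was at 1855 and 1893 CPM in this sum, no higher than its shNC cells. Its Sox9 was higher, at 409 and 404 CPM against 317 and 368 CPM with shNC. Axl (931 and 987 CPM against 1008.5 and 1104 CPM) and Fn1 (515 and 502 CPM against 556 and 622 CPM) were lower. In YUMM2.1 without hairpins the sum was 545 and 948 CPM with EV, 557 and 891 CPM with WT-Bmal1 and 1757 and 1979 CPM with dHLH-Bmal1, and in YUMM1.7 EV it was 1785 and 1834 CPM. In aC3 it was 627 and 629.6 CPM with EV, inside the range of YUMM2.1 EV, where Egln3 was higher, and 522 and 534 CPM with WT-Bmal1. The low and high YUMM2.1 libraries of Egln3 were those of the mesenchymal sum and of Sox9. In YUMM2.1, Sox9 stood at 18.3 and 87.2 CPM with EV and 19.6 and 86.2 CPM with WT-Bmal1.

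Of the 7 melanocytic markers, 3 had counts in EV shNC, with Pmel, Dct, Tyrp1 and Mlana at 0, and Sox10 made up most of their sum of 346 and 349 CPM. The sum was 217 and 204 CPM in EV shMyh9#2, 250.1 and 282 CPM in EV shMyh9#4, 122 and 119 CPM in WT-Bmal1 shNC and 41.2 and 44.3 CPM in dHLH-Bmal1 shNC. Sox10 itself was at 329.9 and 334 CPM in EV shNC and 191 and 181 CPM in EV shMyh9#2, whereas Mitf was at 16.3 and 14.6 CPM and 25.3 and 22.2 CPM, higher where Sox10 was lower. Over the 20 groups, Pearson's r of Egln3 was 0.945 with Sox9 and -0.727 with Sox10, a description over groups that share lines and control libraries. The part of these markers in the Egln3 result was not tested.

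Vhl, the subunit of the E3 ligase that binds hydroxylated HIF alpha (ENSMUSG00000033933, chr6:113623959-113631633, plus strand, no overlapping gene), differed between lines and in no comparison within one. It was at 35 and 34.7 CPM in B16-F10 Ctrl, 23.2 and 26.8 CPM in YUMM2.1 EV and 17.1 and 17.5 CPM in YUMM1.7 EV, and these groups did not overlap. The log2 fold change was 0.45 for B16-F10 Ctrl against YUMM2.1 EV (SE 0.135, 1.37-fold, edgeR adjusted p = 0.0176) and -0.54 for YUMM1.7 EV (SE 0.142, adjusted p = 0.0137), or 0.57 and -0.42 with the YUMM2.1 labels exchanged. The first was lost without B16-F10 Ctrl replicate 1 (adjusted p = 0.0714) or 2 (0.0763) or YUMM2.1 EV replicate 1 (0.0548) and with DESeq2's Wald test (0.0598). The second was lost without YUMM1.7 EV replicate 1 (0.094) or 2 (0.0759). Libraries of the hairpin groups lay between 21.2 and 30.4 CPM.

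Hif1an, the asparaginyl hydroxylase also called FIH (ENSMUSG00000036450, chr19:44562850-44576274, plus strand, no overlapping gene), lay between 29.7 and 61.0 CPM and was called 1 time. In WT-Bmal1 cells it was at 52.6 and 56.6 CPM with shNC and 37.6 and 34.0 CPM with shMyh9#2, without overlap. The log2 fold change was -0.61 (SE 0.152, edgeR adjusted p = 0.0254), in the same cells and with the same hairpin as the higher Hif1a. Leaving out any 1 of these 4 libraries ended the call, with adjusted p-values of 0.0807 to 0.23. In EV cells it was at 43.4 and 45.2 CPM with shNC and 50.6 and 52.1 CPM with shMyh9#2, and the effect in WT-Bmal1 cells was below that in EV cells by 0.83 log2 units (difference -0.83, SE 0.216, adjusted p = 0.0331). That difference was lost in 9 of 18 fits that left out a library. The widest pair of replicates was dHLH-Bmal1 shMyh9#4, at 38.9 and 61.0 CPM.

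Likeness across groups was measured as Pearson's r of log CPM group means over 14144 genes and 20 groups, and is a description over groups that share lines and libraries. The genes most like Egln3 were Pcdh19 (0.972), Mfap3l (0.971) and Aig1 (0.964). For Hif1a they were Ralgapa1 (0.873), Acsl6 (0.859) and Dock8 (0.838). For Epas1 they were Zdhhc15 (0.931), Mpzl1 (0.927) and Inpp4b (0.921).

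The pathway beyond the members was read from 3 lists, of 20 HIF target transcripts, 16 genes of HIF turnover and cofactors, and 11 bHLH-PAS relatives. Over all genes tested, the median log2 fold change lay between -0.04 and 0.02 in every comparison, and the shares of genes called are those given above. The targets code for glucose uptake and glycolysis (Slc2a1, Pdk1, Ldha, Pgk1, Pfkfb3), pH control (Car9), angiogenesis (Vegfa, Adm) and mitophagy and stress (Bnip3, Ndrg1, Ddit4). In YUMM2.1 with dHLH-Bmal1, 14 of 20 targets were higher and 1 lower than with EV, with a median log2 fold change of 1.06, and 14 were higher and 1 lower than with WT-Bmal1, with a median of 0.93. Car9 rose from 0.747 and 1.62 CPM with EV to 11.6 and 6.66 CPM (log2 2.98, edgeR adjusted p = 0.0233) and Adm from 4.40 and 5.93 CPM to 18.6 and 36.2 CPM (2.42, adjusted p = 0.0085). Bnip3 rose by 1.87 (adjusted p = 0.00154) and Vegfa by 1.06 (adjusted p = 0.0137), whereas Pfkfb3 fell by 1.12 (adjusted p = 0.0266). Egln3 was called higher in both of these comparisons and in those whose target medians follow. Such a median can be near 0 with targets called in both directions, and a link between Egln3 and the targets was not tested. The median was 0.05 and -0.06 with shMyh9#2 and shMyh9#4 in EV cells. It was -0.01 and 0.12 for WT-Bmal1 and dHLH-Bmal1 against EV with shNC, and -0.57 for YUMM1.7 EV against YUMM2.1 EV. With the labels exchanged, 14 targets in YUMM2.1 with dHLH-Bmal1 were higher and 3 lower against EV, and 14 and 1 against WT-Bmal1. For WT-Bmal1 against EV, edgeR called 0 of 20 targets (median -0.03), with 0 at an unadjusted p under 0.05 and 0 by DESeq2.

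In aC3, where Egln3 stayed low, 8 of 19 tested targets were higher and 0 lower with WT-Bmal1 than with EV (median 0.49), 6 higher with dHLH-Bmal1 (median 0.33), and edgeR called 0 between them (median 0.05, with 2 at an unadjusted p under 0.05 and 0 by DESeq2). Car9 rose by 1.52 with WT-Bmal1 (adjusted p = 0.0258) and the stress gene Ddit4 by 0.95 with dHLH-Bmal1 (adjusted p = 7.5e-05). In YUMM1.7, where Egln3 was high with every construct, 8 of 18 targets were lower with dHLH-Bmal1 than with WT-Bmal1 and 0 higher (median -0.39), with Ankrd37 at -1.67 (adjusted p = 0.0266). Against EV, dHLH-Bmal1 gave 0 higher and 2 lower (median -0.21), and WT-Bmal1 gave 0 calls by edgeR (median 0.12, 2 at an unadjusted p under 0.05, 0 by DESeq2). The dHLH-Bmal1 effect in YUMM1.7 was below that in YUMM2.1 for 13 of the targets and above it for 0 (median difference -1.0).

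In B16-F10, edgeR called 0 of 20 targets (median -0.52), with 9 at an unadjusted p under 0.05 and 3 called by DESeq2. Vegfa, which encodes the angiogenic ligand VEGF-A, was at 54.6 and 50.6 CPM in Ctrl and 27.3 and 25.1 CPM in Bmal1 KO, without overlap. Between lines, YUMM1.7 EV had 1 target higher and 13 lower than YUMM2.1 EV (median -0.57), B16-F10 Ctrl 9 higher and 3 lower (median 0.36), and aC3 EV 0 higher and 4 lower (median -0.28). With the YUMM2.1 labels exchanged these counts were 1 and 14, 9 and 4, and 0 and 8, beside 48.5%, 61.7% and 9.76% of all genes called. Car9 was 2.86 log2 units higher in B16-F10 Ctrl (adjusted p = 0.00018) and Pfkfb4, a glycolytic regulator, 3.25 log2 units lower in YUMM1.7 (log2 -3.25, adjusted p = 3.13e-05). Adm had 0 counts in both aC3 EV libraries, which makes it at least 18.6-fold lower than in YUMM2.1 EV when 3 counts per library are allowed for.

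With shMyh9#2, 3 of 20 were higher and 0 lower in EV cells, 2 higher and 0 lower in WT-Bmal1 cells, and edgeR called 0 in dHLH-Bmal1 cells (3 at an unadjusted p under 0.05, 1 by DESeq2). With shMyh9#4, 1 was higher in EV cells, edgeR called 0 in WT-Bmal1 cells (6 unadjusted, 3 by DESeq2), and 0 were higher and 4 lower in dHLH-Bmal1 cells, namely Car9 (-1.62, adjusted p = 0.0221), Adm (-0.83), Ndrg1 (-0.71) and Ero1l (-0.33). Among shNC cells, 4 were higher and 5 lower with WT-Bmal1 than with EV (median -0.01). With dHLH-Bmal1, 6 were higher and 4 lower (median 0.12, against 1.06 without a hairpin). Of those called higher, Adm rose by 2.23 with WT-Bmal1 (adjusted p = 6.24e-06) and Car9 by 2.30 with dHLH-Bmal1 (adjusted p = 0.000661). The higher Egln3 of shNC cells with WT-Bmal1 or dHLH-Bmal1 stood beside targets that were called in both directions.

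**Figure D5:**
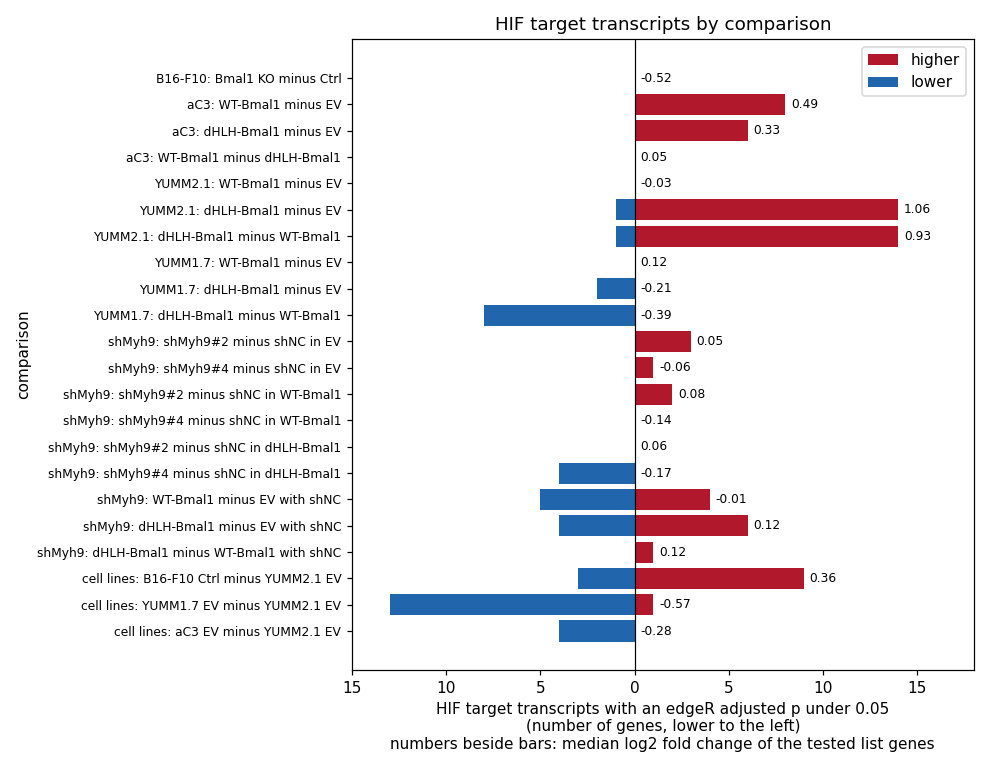
Number of HIF target transcripts (horizontal axis) called higher or lower at an edgeR adjusted p under 0.05 in each comparison (vertical axis), with the median log2 fold change of those tested printed beside the bars. The bars reach 14 higher for dHLH-Bmal1 in YUMM2.1 and 13 lower for YUMM1.7 against YUMM2.1.

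Of the 16 genes of HIF turnover and cofactors, 15 were tested, and Cited4 was not. In YUMM2.1 with dHLH-Bmal1, 1 was higher and 0 lower against EV and against WT-Bmal1. This was Cited2, which competes with HIF for the coactivator p300, at log2 0.81 and 0.97. With the labels exchanged, 4 were higher and 0 lower against EV. In dHLH-Bmal1 cells with shMyh9#4, where Egln1 fell, 1 was higher and 3 lower. The ligase partners of Vhl, Elob and Rbx1, were at -0.70 and -0.46, Cited2 at -0.68 and the coactivator Crebbp at 0.41. Among shNC cells 3 were higher and 2 lower with WT-Bmal1 than with EV, and 2 and 2 with dHLH-Bmal1. Between lines, 5 were higher and 4 lower in B16-F10 Ctrl than in YUMM2.1 EV, 3 and 3 in YUMM1.7 EV, and 0 in either direction in aC3 EV, or 6 and 4, 6 and 3, and 1 and 0 with the YUMM2.1 labels exchanged.

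Of the 11 bHLH-PAS relatives, at most 6 were tested in a comparison. Arntl was lower with WT-Bmal1 than with dHLH-Bmal1 in aC3 (-1.10, adjusted p = 0.00287) and higher with dHLH-Bmal1 than with EV in YUMM1.7 (1.05, adjusted p = 0.0136), and whether its 3′ tags read the constructs is not stated in the sources used here. Arntl2, a close relative of Bmal1, fell by 1.53 with shMyh9#4 in dHLH-Bmal1 cells (adjusted p = 0.0353). Ahrr, the repressor of the aryl hydrocarbon receptor, was 3.32 log2 units higher in YUMM1.7 EV than in YUMM2.1 EV (adjusted p = 0.00833). Between lines the list had 2 higher and 1 lower in B16-F10 Ctrl, 3 and 2 in YUMM1.7 EV and 1 and 0 in aC3 EV.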

How the data were processed

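QuantSeq libraries from cultured mouse melanoma cells were compared, 2 in each of 20 groups taken from the labels. The authors aligned single reads to mm10 with bowtie2 and deposited estimated counts per Ensembl gene from RSEM (version 1.2.3 in the submitters' processing notes), rounded to whole numbers and not normalized. DESeq2 is also named in those notes. The strand used in counting is not given in the sources used here. Depth was 3643332 to 22970049 counts per library.

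Symbols and positions came from GENCODE on GRCm38 for 99.63% of 51789 identifiers, and promoters from RefSeq on GRCm38.p6. Levels are CPM with TMM factors over all 40 libraries. In R 4.3.3, edgeR 4.0.16 (TMM, filterByExpr, quasi-likelihood fit and test) was run per experiment over all genes passing the filter, with Benjamini-Hochberg adjustment at 0.05, on 30 comparisons. Each SE belongs to a log2 fold change, and intervals are at 95%. The text names the members, and from each list the genes with the most extreme called change in each direction with a mean of at least 10 counts, while any further list gene was chosen with its values in view. The members and lists were chosen with earlier results of these data known. Alternatives were DESeq2 1.42.0, its size factors, other filters, 1 fit of all libraries, a replicate block, each library left out, and exchanged labels. The scripts were tested on simulated data. Tests of differences between effects in YUMM1.7 or between constructs under hairpins were added after the data were seen. An item of the lines' genotype is not reported here.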

Additional observations from a re-analysis of the deposited data

Results flagged for a closer look

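For 9 results a test of the difference between 2 effects passed an edgeR adjusted p of 0.05 (quasi-likelihood test, Benjamini-Hochberg), each on 2 libraries per group. All differences are in log2 units and no cause was tested. The calls for Arnt2 in aC3 and for Egln3 with shMyh9#2 in dHLH-Bmal1 cells were kept in every fit that left out a library. Each of the others was lost in some of these fits, as given with its gene above.

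The dHLH-Bmal1 effect on Arnt2 was 1.46 higher in aC3 than in YUMM2.1 (SE 0.268, adjusted p = 0.00432) and 1.5 higher in YUMM1.7 than in YUMM2.1 (SE 0.396, adjusted p = 0.0367). For Egln3 the dHLH-Bmal1 effect in YUMM1.7 minus that in YUMM2.1 was -2.5 (SE 0.586, adjusted p = 0.0228).

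The shMyh9#2 effect on Egln3 in WT-Bmal1 cells minus that in EV cells was -1.06 (SE 0.291, adjusted p = 0.0418), and in dHLH-Bmal1 cells minus EV cells it was -1.81 (SE 0.298, adjusted p = 0.00187). The former was lost in 10 of 18 fits that left out a library, and without EV shNC replicate 2 it was -0.69 (adjusted p = 0.237). For shMyh9#4 the Egln3 differences were -1.66 for WT-Bmal1 cells (SE 0.299, adjusted p = 0.0121) and -1.25 for dHLH-Bmal1 cells (SE 0.303, adjusted p = 0.0181), each against EV cells. The shMyh9#2 effect on Hif1an in WT-Bmal1 cells minus that in EV cells was -0.83 (SE 0.216, adjusted p = 0.0331). The shMyh9#4 effect on Egln1 in dHLH-Bmal1 cells minus that in EV cells was also -0.83 (SE 0.211, adjusted p = 0.0216).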

How the results depend on the processing

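No call of a member reversed under any alternative run, and DESeq2's size factors gained or lost none of the 30 calls. Checks of a called member under an alternative kept the call 499 times and lost it 97 times. Changes in counts of calls follow, though not every one is listed. DESeq2's Wald test gave 5 calls in place of 4 in YUMM2.1 and 7 in place of 8 between lines. For the construct effects of YUMM1.7 against YUMM2.1 it gave 3 in place of 2, the gain being Epas1. That difference was also called without a filter and in 1 fit of all 40 libraries. Between lines, calls were gained without a filter for Egln3, Egln1 and Epas1. In B16-F10 the 0 calls became 1 with DESeq2's Wald test, without a filter, in 1 fit of all 40 libraries and with a replicate block, each time Egln1. In aC3 the 0 calls became 1 without a filter and with the block, each time Hif1a, and in YUMM1.7 0 became 1 without a filter. In YUMM2.1 the 4 calls became 7 without a filter, in 1 fit of all libraries, with the block and with the labels exchanged. Between lines, 8 became 12 with the labels exchanged. For the construct effects of aC3 against YUMM2.1, 1 call became 3 without a filter, 3 with the labels exchanged and 2 without both doubtful libraries, and for YUMM1.7 against YUMM2.1, 2 became 4 with the labels exchanged. For hairpin effects between constructs, 6 became 2 in 1 fit of all libraries. Leaving out 1 library gave 0 to 4 calls in B16-F10, 0 to 0 in aC3, 0 to 5 in YUMM2.1, 0 to 1 in YUMM1.7, 6 to 11 under the hairpins and 5 to 12 between lines. It gave 1 to 1 for aC3 against YUMM2.1, 0 to 3 for YUMM1.7 against YUMM2.1 and 1 to 7 for hairpin effects between constructs. A fit that left out a library kept 1 library in that group, whose spread it could not measure. The causes were not tested.

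The labels do not say what a replicate number shares between groups. For each gene the log2 CPM of replicate 2 was taken from that of replicate 1, and these differences were correlated between groups. The mean correlation was 0.328 in YUMM2.1 (0.187 to 0.415 over 3 pairs of groups, all with a doubtful library). It was 0.097 in B16-F10, 0.04 in aC3, -0.006 in YUMM1.7, -0.002 under the hairpins and -0.018 between lines, with 2 numbers per group. With the block, the hairpin comparisons had 8 calls in place of 9, the lost one being Arnt2 in dHLH-Bmal1 against WT-Bmal1 with shNC (adjusted p = 0.0555). Epas1 and Hif3a are limited by depth, since their libraries held 0 to 218 counts of Epas1 and 2 counts of Hif3a in all.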

Other observations

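The promoter windows not printed above differ in the same letters. Egln2, which was called in no comparison, has 2 RefSeq windows. The one at chr7:27166753-27167052 held ACGTG 3 times, the variant GCGTG 3 times and the element CACGTG 1 time, and the one at chr7:27165679-27165978 held GCGTG 1 time. Hif3a, which was at 0 in 38 of 40 libraries, held GCGTG 2 times. Arnt held GCGTG 1 time, and Vhl and Hif1an held none of the 3 sequences. Among all windows, 19.6% held ACGTG. The share was 32.4% for GCGTG, and 7.2% of windows held CACGTG.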
